A study of Mus musculus with 18 samples.

Results

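The 39 genes of the mouse Hox clusters were taken from the expression table by their symbols, which give a cluster letter (a, b, c or d) and a paralogue number from 1 to 13. They are 39 of 52093 symbols in the table, each with a single row. RNA-seq had been performed on mature adipocytes isolated from inguinal white fat (iWAT) and epididymal white fat (eWAT) and on whole brown adipose tissue (BAT), with 6 samples per tissue and 18 samples in all. The mice were wild-type males of the C57BL/6 strain, given as C57BL/6J in the protocol and as C57BL/6NTac elsewhere in the study, aged 16 weeks, that had eaten a high-fat diet (HFD) for the last 12 weeks, and no sample carried a transgene or received a drug. A treatment field of the labels gives regular chow for each sample, whereas the titles, the series design and the extraction protocol give the HFD, and the samples were treated as HFD. White adipocytes were the floating layer after collagenase digestion, whereas BAT was frozen as a whole tissue although its cell type label reads "BAT adipocytes", so tissue origin and mode of preparation cannot be told apart in any comparison with BAT. In bulk RNA, fewer cells of a type and less RNA per cell also cannot be told apart. From here on, iWAT and eWAT stand for the adipocytes isolated from these depots.

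Hox genes encode transcription factors that bind DNA through a homeodomain. In the embryo they are switched on in the order in which they lie along the chromosome, low paralogue numbers toward the head and high numbers toward the tail and the limbs, and adult mesenchymal cells keep part of this address. Genes with the same number in different clusters are paralogues that descend from a common ancestral gene. Inguinal fat lies under the skin of the groin, epididymal fat lies in the abdomen beside the testis, and the main brown depot of the mouse lies between the shoulder blades. Below, numbers 1 to 3 are called anterior, 4 to 8 central and 9 to 13 posterior.

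In the mm9 (NCBIM37) genome the 11 Hoxa genes span chr6:52105366-52210874 on the minus strand, the 10 Hoxb genes chr11:96055630-96229570, the 9 Hoxc genes chr15:102751562-102867283 and the 9 Hoxd genes chr2:74506367-74603200, these last 3 on the plus strand. The homeobox, the 180 bases that code for the 60 residues of the homeodomain, was found in the coding sequence of 39 of 39 genes. Those of 5 genes are printed below in coding orientation, read from the NCBIM37 genome with the GENCODE vM1 annotation, because the differences between tissues turn on these genes. Hoxa5 was the highest gene of BAT, Hoxc8 was the highest gene of both white depots, and Hoxc9, Hoxa10 and Hoxc10 separated iWAT from the other tissues. Capitals mark the 18 bases that code for a conserved stretch of the DNA recognition helix.
Hoxa5, chr6:52152631-52152810, minus strand: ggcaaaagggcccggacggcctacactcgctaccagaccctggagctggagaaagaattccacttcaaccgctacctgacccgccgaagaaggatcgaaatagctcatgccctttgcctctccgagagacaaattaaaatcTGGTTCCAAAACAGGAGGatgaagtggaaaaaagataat
Hoxc8, chr15:102823002-102823181, plus strand: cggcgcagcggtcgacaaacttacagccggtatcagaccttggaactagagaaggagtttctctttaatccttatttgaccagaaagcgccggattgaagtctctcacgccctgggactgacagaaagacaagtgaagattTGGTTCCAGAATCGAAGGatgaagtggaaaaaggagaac
Hoxc9, chr15:102814361-102814540, plus strand: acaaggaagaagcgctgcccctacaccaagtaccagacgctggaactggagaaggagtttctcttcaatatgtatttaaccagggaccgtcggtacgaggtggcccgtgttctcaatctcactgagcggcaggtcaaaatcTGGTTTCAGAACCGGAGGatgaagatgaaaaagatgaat
Hoxa10, chr6:52182553-52182732, minus strand: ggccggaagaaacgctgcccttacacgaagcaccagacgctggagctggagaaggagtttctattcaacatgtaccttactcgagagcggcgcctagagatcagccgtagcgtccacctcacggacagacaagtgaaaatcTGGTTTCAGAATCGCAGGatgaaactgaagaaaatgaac
Hoxc10, chr15:102801279-102801458, plus strand: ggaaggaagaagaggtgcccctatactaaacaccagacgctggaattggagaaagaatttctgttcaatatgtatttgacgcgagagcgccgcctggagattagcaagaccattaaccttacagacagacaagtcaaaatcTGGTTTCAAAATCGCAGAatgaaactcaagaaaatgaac

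The paralogues Hoxa10 and Hoxc10 were identical at 80.6% of these 180 bases. Hoxc8 and Hoxc10, which lie on either side of Hoxc9 and differed in their pattern across tissues, were identical at 108 of the 180 bases, with no identical run longer than 8 bases. Over the 42 pairs with the same paralogue number the median identity was 80.6%, against 61.1% over all 741 pairs, and the longest identical run of any pair was 52 bases (Hoxa6 and Hoxb4). Whether reads from such stretches were split between genes was not tested.

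Between 24655056 and 42518483 reads per sample fell on the rows of the table, with medians of 28898601 in iWAT, 28885180 in eWAT and 37643115 in BAT. Brown adipocyte markers summed to 1981 to 2626 RPKM in BAT against at most 12.3 in the white depots, so no sample went against its label as brown or white. This check was not used to tell iWAT from eWAT. RPKM is the read count divided by transcript length and library size, so levels of different genes can be ordered within a tissue. Macrophage markers summed to 707 to 1063 RPKM in eWAT, 147 to 276 in iWAT and at most 9.90 in BAT, whereas the summed adipocyte markers were 2407 to 7423, 10630 to 15060 and 5494 to 6732 RPKM. Skeletal muscle markers summed to 1.31 to 104 RPKM in BAT and at most 16.2 in the white depots, and epididymal epithelium markers to 0.167 to 14.7 RPKM in eWAT and at most 0.00845 elsewhere, and the part of these cells in the Hox levels was not tested. The eWAT samples numbered 1 and 3 had the lowest adipocyte and the highest macrophage sums of their group. White adipocyte libraries were run in lanes 1 and 2 and BAT libraries in lanes 3 and 4, so lane and BAT cannot be told apart.

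The tissues differed in the clusters and paralogue numbers they expressed. Summed over the 39 genes, expression was 94.7 ± 8.63 RPKM (SD, n = 6) in iWAT, 26.98 ± 9.13 in eWAT and 49.8 ± 5.98 in BAT. Hoxc genes supplied 63.4% of this sum in iWAT, 55.9% in eWAT and 32.8% in BAT, whereas Hoxa genes supplied 16.5%, 14.7% and 42.1%. The posterior genes supplied 22.2% ± 1.87 of the sum in iWAT, 4.99% ± 0.754 in eWAT and 1.15% ± 0.493 in BAT, and these shares did not overlap between tissues. The anterior genes supplied 4.65% ± 1.27, 7.65% ± 2.27 and 11.0% ± 0.878.

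**Figure D1:**
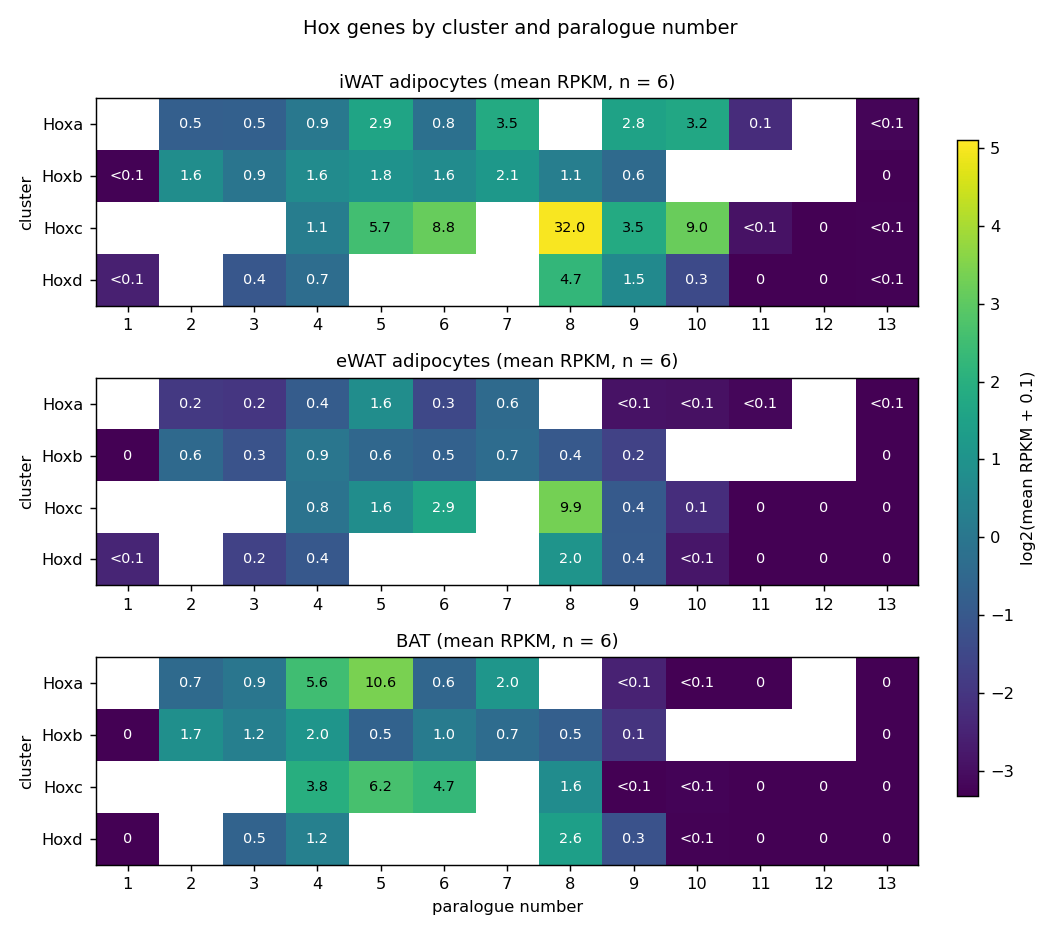
Mean RPKM of the Hox genes (n = 6 samples) in iWAT, eWAT and BAT, with the 4 clusters as rows, the paralogue number as columns and colour on the scale of log2(RPKM + 0.1); white positions hold no gene or are not shown. In iWAT Hoxc expression reached number 10, at 8.999 RPKM for Hoxc10, whereas in BAT it stopped after number 8, and Hoxa4 and Hoxa5 stood out in BAT at 5.64 and 10.6 RPKM.

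At a mean of at least 1 RPKM, 18 Hox genes were expressed in iWAT, 5 in eWAT and 13 in BAT. Hoxa5, Hoxc5, Hoxc6, Hoxc8 and Hoxd8, each of central number, were the 5 that passed this level in the 3 tissues. The highest paralogue number at this level was 10 in iWAT, 8 in eWAT and 8 in BAT. Of the 16 posterior genes, Hoxa9, Hoxa10, Hoxc9, Hoxc10 and Hoxd9 passed it in iWAT, and 0 passed it in eWAT or BAT. The mean was highest in iWAT for 22 genes, in BAT for 12 and in eWAT for Hoxd1 alone, a gene at no more than 0.190 RPKM in any sample.

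Some members were silent or near it in these libraries. Hoxb13, Hoxc12, Hoxd11 and Hoxd12 had no read in any of the 18 samples, and Hoxa13, Hoxb1, Hoxc13 and Hoxd13 had at most 3 reads in each. Most of these are the terminal genes of their clusters, known for patterning the distal limb, the genital tubercle and the tail. A few reads more were found for Hoxa11, at 0.111 ± 0.0621 RPKM in iWAT, 0.0120 ± 0.0146 in eWAT and no read in BAT, and for Hoxc11, at 0.0326 ± 0.0264 RPKM in iWAT and no read elsewhere. Hoxd10, a limb gene, had 42 reads in iWAT sample 1 and 5 to 15 in the other iWAT samples, and ranged from 0 to 5 in eWAT and from 0 to 1 in BAT. In BAT, 15 of the 39 genes had at most 3 reads in every sample, against 10 in eWAT and 8 in iWAT.

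In iWAT, expression peaked at Hoxc8, a gene of the lower thoracic trunk that is known to restrain brown adipocyte differentiation in white fat progenitors. Its lowest, median and highest values were 26.8, 33.0 and 36.2 RPKM in iWAT, 3.38, 11.8 and 14.4 RPKM in eWAT, and 1.19, 1.60 and 2.05 RPKM in BAT. The 3 tissues did not overlap. Hoxc8 alone made up 33.8% ± 3.71 of the Hox sum in iWAT and 34.8% ± 8.48 in eWAT, against 3.29% ± 0.754 in BAT. After Hoxc8, the order of means in iWAT was Hoxc10 (8.999 ± 1.71 RPKM), Hoxc6 (8.80 ± 1.07), Hoxc5 (5.71 ± 0.913) and Hoxd8 (4.65 ± 1.38), where Hoxc10 and Hoxc6 lay within each other's spread, as did Hoxc5 and Hoxd8.

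In eWAT the order below Hoxc8 was Hoxc6 (2.91 ± 1.32 RPKM), Hoxd8 (1.97 ± 0.480), Hoxa5 (1.64 ± 0.358) and Hoxc5 (1.64 ± 0.736). The spreads of these 4 genes overlapped, although Hoxc6 lay above Hoxc5 within each eWAT sample. In BAT the order began with Hoxa5 (10.6 ± 1.68 RPKM), Hoxc5 (6.20 ± 1.69), Hoxa4 (5.64 ± 1.09), Hoxc6 (4.75 ± 0.604) and Hoxc4 (3.82 ± 0.972). In BAT Hoxa5 stood above the others except for the highest Hoxc5 sample, 9.05 RPKM against a lowest Hoxa5 sample of 8.61, and the next 3 overlapped. Within each BAT sample Hoxa5 lay above Hoxc5. The 5 highest genes of BAT thus carried numbers 4 to 6, whereas the 5 highest of iWAT carried, in order, numbers 8, 10, 6, 5 and 8.

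The comparison of iWAT and eWAT asks how Hox expression differs between white fat under the skin and white fat in the abdomen. Between these depots 26 Hox genes were higher in iWAT and 0 in eWAT at an adjusted p of 0.05 in the edgeR test. A mean count of at least 10 was required for testing, which 27 of the 39 genes passed, Hoxa2, Hoxa6, Hoxa9, Hoxa10 and Hoxc10 only through their level in iWAT. These 5 genes could hardly have come out otherwise, so their calls are not counted as support and no p is given for them. Of the 22 genes that reached this count in both depots, 21 were higher in iWAT. Over all 19623 genes tested, 68.6% were called, 34.1% higher in iWAT and 34.5% higher in eWAT, so calls were common in both directions. The 27th gene was Hoxc4, at 1.08 ± 0.182 RPKM in iWAT and 0.826 ± 0.316 in eWAT (log2 fold change 0.39 ± 0.24 (SE), edgeR adjusted p = 0.161).

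The largest differences between the white depots were those of Hoxa10, Hoxa9 and Hoxc10. Hoxc10, a gene of the lumbar trunk and hindlimb that is also known as a repressor of browning in subcutaneous fat, had lowest, median and highest values of 7.34, 8.67 and 11.5 RPKM in iWAT, against 0.0127, 0.141 and 0.170 in eWAT. Each iWAT sample had at least 424 reads and each eWAT sample at most 11 reads for this gene, and the log2 fold change was 6.36 ± 0.29 (82.1-fold). Hoxa10, best known for its role in the uterus and the lumbar spine, had values of 2.66, 3.31 and 3.702 RPKM in iWAT and 0, 0.0259 and 0.0717 in eWAT, a log2 fold change of 6.77 ± 0.38 (109-fold). The depots were far apart for both genes, and eWAT levels rested on 0 to 12 reads.

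Hoxa9, a gene of blood progenitors and of the posterior trunk, had values of 2.29, 2.65 and 3.87 RPKM in iWAT and 0.0159, 0.0231 and 0.0602 in eWAT, a log2 fold change of 6.42 ± 0.26 (85.6-fold). Hoxc9, which borders Hoxc8 and specifies thoracic motor neurons, was intermediate. Its values were 2.88, 3.61 and 3.96 RPKM in iWAT and 0.155, 0.461 and 0.621 in eWAT, a log2 fold change of 3.08 ± 0.27 (8.44-fold, edgeR adjusted p = 8.13e-07). Hoxa9 overlaps other rows of the table, so part of its reads is uncertain, whereas Hoxa10, Hoxc9 and Hoxc10 overlap none.

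The number 9 genes of the other clusters had smaller fold changes. Hoxd9, a limb and trunk gene, was at 1.49 ± 0.627 RPKM in iWAT and 0.430 ± 0.116 in eWAT (log2 fold change 1.80 ± 0.25). Hoxb9, a thoracic gene, was at 0.649 ± 0.326 and 0.219 ± 0.119 RPKM (log2 fold change 1.55 ± 0.42). Within the Hoxb cluster the 8 genes tested spanned log2 fold changes of 0.82 (Hoxb4) to 1.64 (Hoxb6 and Hoxb7), a narrow band next to Hoxc, which spanned 0.39 (Hoxc4) to 6.36 (Hoxc10).

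Central genes were between 1.77-fold and 5.42-fold higher in iWAT, leaving out Hoxc4. The largest was Hoxa7, a gene of the cervical and thoracic trunk, at 3.47 ± 0.546 RPKM in iWAT and 0.644 ± 0.140 in eWAT (log2 fold change 2.44 ± 0.14, edgeR adjusted p = 1.64e-07). Hoxc8 had a log2 fold change of 1.70 ± 0.32, Hoxc5 of 1.82 ± 0.28 and Hoxc6 of 1.61 ± 0.27, so these neighbouring Hoxc genes differed between the depots by about the same amount. The anterior genes Hoxa2, Hoxa3, Hoxb2, Hoxb3 and Hoxd3, which pattern the hindbrain and neck, had log2 fold changes of 0.83 to 1.71 and mean levels of at most 1.65 RPKM in iWAT.

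**Figure D2:**
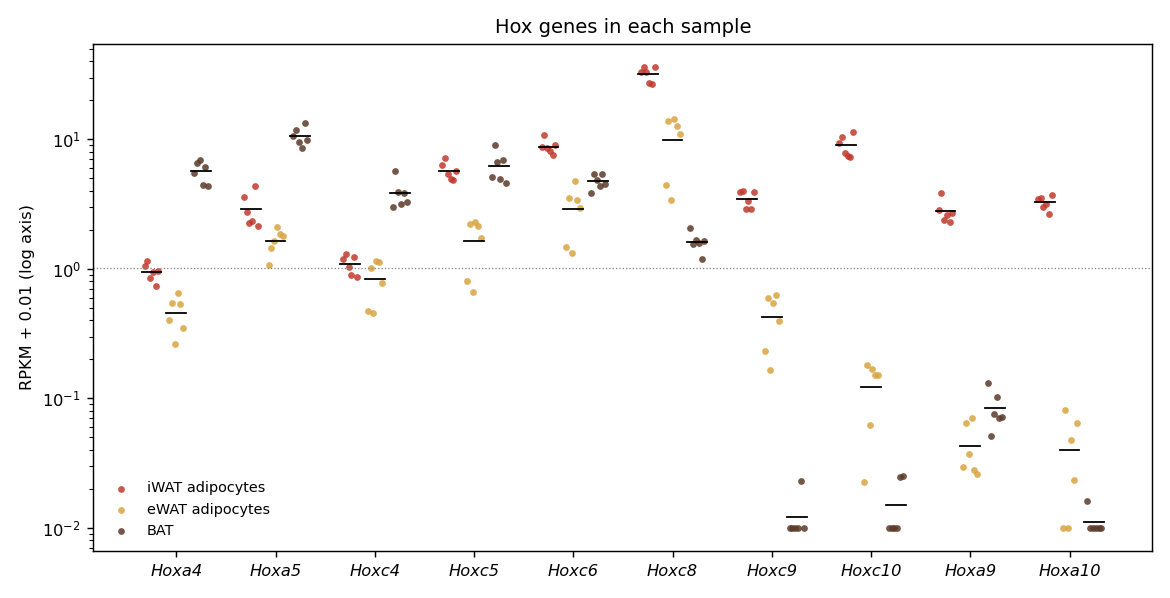
RPKM + 0.01 on a log axis of 10 Hox genes in each of the 6 samples of iWAT, eWAT and BAT, with means as horizontal bars and a dotted line at 1 RPKM. Hoxa9, Hoxa10, Hoxc9 and Hoxc10 lay above 2 RPKM in each iWAT sample and below 1 RPKM in each eWAT and BAT sample, whereas Hoxa4 and Hoxa5 were highest in BAT.

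Markers of several cell types moved with these differences. The 5 adipocyte markers Adipoq, Plin1, Cidec, Fabp4 and Lipe were 5 of 5 higher in iWAT, with a median log2 fold change of 1.47, and the geometric mean of their levels was 740 to 1097 RPKM in iWAT and 153 to 509 in eWAT. The eWAT samples 1 and 3 had the lowest geometric means, 202 and 153 RPKM, and the lowest Hoxc8, 4.40 and 3.38 RPKM against 10.9 to 14.4 in the other 4. Without these samples 26 genes were again higher in iWAT, and the log2 fold change was 5.86 for Hoxc10, 6.13 for Hoxa10 and 1.30 for Hoxc8. The 26 include genes tested only through iWAT, such as Hoxa10 and Hoxc10, whose calls are not counted as support.

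The endothelial markers Cdh5, Pecam1, Kdr and Tek were also 4 of 4 higher in iWAT, with a median log2 fold change of 1.73, and summed to 99.5 to 280 RPKM in iWAT against 33.4 to 71.2 in eWAT. Of the Schwann cell markers, 2 of 2 tested were higher in iWAT (median 3.54), whereas 5 of 5 macrophage markers were higher in eWAT (median -2.01). The part of these cell types in the Hox differences between the depots was not tested.

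Expressed per 1000 RPKM of this geometric mean, Hoxc8 was 33.6 ± 3.06 in iWAT, 26.9 ± 3.997 in eWAT and 4.15 ± 0.797 in BAT, and Hoxc6 was 9.25 ± 0.771, 8.16 ± 0.852 and 12.2 ± 1.38. On this scale the 2 white depots overlapped for Hoxc8, from 28.1 to 36.2 and from 21.8 to 31.3. Hoxc10 did not, at 9.41 ± 1.06 in iWAT and 0.299 ± 0.118 in eWAT.

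In an edgeR fit scaled to the 5 adipocyte markers in place of the whole library, 5 Hox genes stayed higher in iWAT (Hoxa7, Hoxa9, Hoxa10, Hoxc9 and Hoxc10), 4 were higher in eWAT, among them Hoxb4, Hoxc4 and Hoxd3, and 18 were not called. Hoxa9, Hoxa10 and Hoxc10 reached the count minimum only through iWAT, so their calls are not counted as support here either. This scaling moved the median over all genes to a log2 fold change of -1.69, with 0.729% of all genes higher in iWAT and 84.8% higher in eWAT. Per adipocyte marker, Hoxc10 still had a log2 fold change of 4.94 ± 0.33 and Hoxa10 of 5.43 ± 0.48, whereas Hoxc8 had 0.32 ± 0.22 (edgeR adjusted p = 0.186). Of the genes described singly, 12 turned direction, mostly anterior and central ones such as Hoxa5, at -0.74 ± 0.35.

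**Figure D3:**
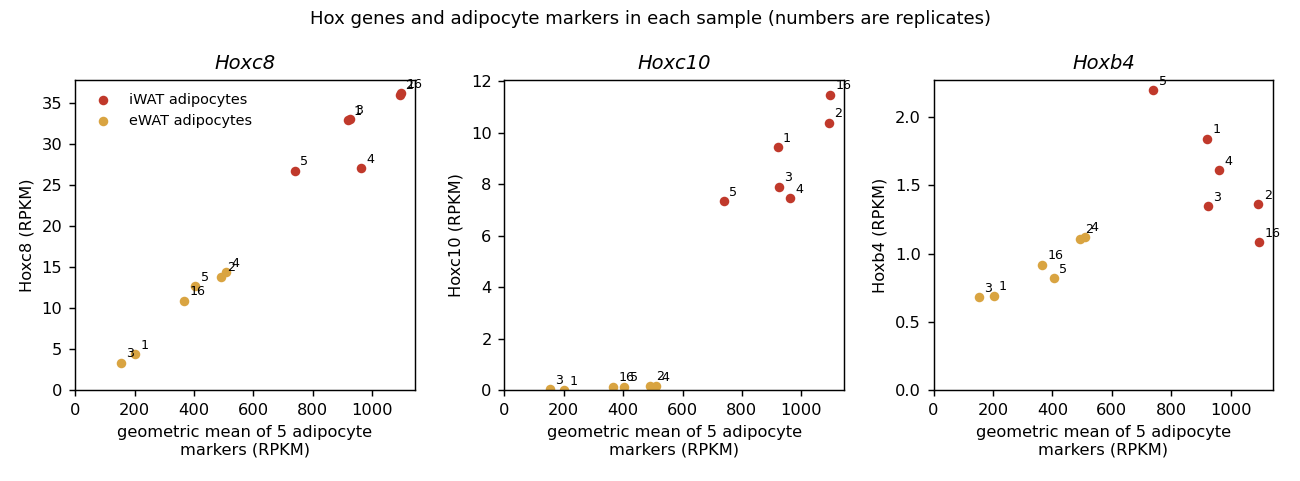
RPKM of Hoxc8, Hoxc10 and Hoxb4 in the 12 white adipocyte samples against the geometric mean RPKM of 5 adipocyte markers, with replicate numbers beside the points. In eWAT, samples 1 and 3 lay lowest on both axes for Hoxc8, Hoxc10 and Hoxb4. Hoxc10 in eWAT rested on 1 to 11 reads and stayed at or below 0.170 RPKM at any marker level.

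The 12 white libraries were divided unevenly between lane 1 and lane 2. Lane 1 held iWAT samples 1 and 3 and eWAT samples 2, 3, 4 and 5. Lane 2 held iWAT samples 2, 4, 5 and 16 and eWAT samples 1 and 16. Lane and depot were thus not balanced, and each lane had few samples of a depot. Within lane 1, 23 Hox genes were higher in iWAT and within lane 2, 24 were, with 0 higher in eWAT in either lane. Over all genes, 17.8% were higher in iWAT and 19.8% in eWAT within lane 1, and 25.2% and 24.8% within lane 2. Genes tested only through iWAT, such as Hoxa10 and Hoxc10, were tested here too, and their calls are again not counted as support. The log2 fold change of Hoxc10 was 6.04 in lane 1 and 7.02 in lane 2, that of Hoxa10 6.63 and 7.05, and that of Hoxc8 1.58 and 2.09.

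The comparison of iWAT and BAT sets subcutaneous fat of the groin against brown fat. At an adjusted p of 0.05 in the edgeR test 11 Hox genes were higher in iWAT, 12 were higher in BAT and 4 were not called, of 27 tested. Over all 19745 genes tested, 75.3% were called, 38.1% higher in iWAT and 37.2% higher in BAT. Hoxa9, Hoxa10, Hoxc9 and Hoxc10 could be tested only through their level in iWAT, so their calls are not counted as support and no p is given for them. Among the 23 genes that reached the count minimum in both tissues, 7 were higher in iWAT and 12 in BAT. The 6 anterior genes were higher in BAT, and the 15 central genes were divided, with 5 higher in iWAT, 6 higher in BAT and 4 not called. The 2 posterior genes among them, Hoxb9 and Hoxd9, were higher in iWAT.

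The fits use TMM, a scaling that assumes most genes do not differ. Without it the median gene had a log2 fold change of 0.87 between iWAT and BAT and 0.89 between eWAT and BAT, and the share of calls that were higher in the white depot rose from 50.6% to 81.8% and from 49.8% to 76.1%. RPKM values carry no such scaling, so ratios of RPKM to BAT are also higher than the fitted fold changes, but by a smaller shift. On log2(RPKM + 0.1) the median gene had a log2 fold change of 0.536 between iWAT and BAT and 0.484 between eWAT and BAT. Without TMM, 5 Hox genes rather than 12 were higher in BAT than in iWAT, namely Hoxa3, Hoxa4, Hoxa5, Hoxc4 and Hoxd4, whereas the directions of Hoxb2, Hoxb6 and Hoxc5 turned. Changes against BAT are given below relative to the median gene.

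The genes furthest toward iWAT were Hoxa10, Hoxc10 and Hoxc9, which had at most 1 read in each BAT sample. Hoxa10 was at least 55.5-fold higher in iWAT, Hoxc10 at least 59.5-fold and Hoxc9 at least 26.1-fold, taking the level that 3 reads would give in BAT as the bound. Hoxa9 kept 6 to 15 reads in BAT, at 0.0739 ± 0.0284 RPKM, and had a log2 fold change of 4.65 ± 0.23.

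Hoxc8 had a log2 fold change of 3.71 ± 0.14 between iWAT and BAT (13.1-fold, edgeR adjusted p = 5.22e-12). Hoxc6, the next Hoxc gene in order, which marks the start of the thorax, differed by 0.29 ± 0.11 (edgeR adjusted p = 0.0273), at 8.80 ± 1.07 against 4.75 ± 0.604 RPKM. With the replicate number as a block, the calls of Hoxc6 (0.32 ± 0.15), Hoxb8 (0.64 ± 0.27) and Hoxb2 (-0.61 ± 0.27) no longer passed. Against BAT this block rests on only 4 pairs of same-numbered samples, and 63.5% rather than 75.3% of all genes were called. Pairing and the smaller number of samples thus cannot be told apart. Hoxc5, at 5.71 ± 0.913 and 6.20 ± 1.69 RPKM, was higher in BAT on the fitted scale (-0.72 ± 0.15), while its RPKM ranges overlapped. Along the Hoxc cluster the log2 fold change thus went from -2.43 ± 0.15 at Hoxc4 through -0.72 at Hoxc5 and 0.29 at Hoxc6 to 3.71 at Hoxc8.

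The genes furthest toward BAT were Hoxa4, Hoxa5 and Hoxc4. Hoxa4, a gene of the neck vertebrae, had lowest, median and highest values of 4.36, 5.80 and 6.91 RPKM in BAT, 0.727, 0.937 and 1.15 in iWAT and 0.253, 0.463 and 0.639 in eWAT. BAT and the white depots did not overlap, and the log2 fold change of iWAT over BAT was -3.19 ± 0.15 (9.11-fold higher in BAT, edgeR adjusted p = 2.58e-11). Hoxa5, which is needed for the lung and trachea, had values of 8.61, 10.2 and 13.3 RPKM in BAT, 2.14, 2.53 and 4.38 in iWAT and 1.07, 1.70 and 2.11 in eWAT, a log2 fold change of -2.48 ± 0.15 (5.59-fold higher in BAT, edgeR adjusted p = 3.94e-10).

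Hoxc4, at the head end of its cluster, had values of 3.01, 3.57 and 5.65 RPKM in BAT, 0.8498, 1.11 and 1.28 in iWAT and 0.446, 0.890 and 1.15 in eWAT. Each BAT sample lay above the white samples, and the log2 fold change of iWAT over BAT was -2.43 ± 0.15 (5.39-fold higher in BAT, edgeR adjusted p = 7.05e-10). The row of Hoxa3 overlaps those of Hoxa4, Hoxa5 and Hoxa6 in the table, so their separate counts are uncertain, whereas Hoxc4 overlaps no other Hox row.

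Among the number 4 genes, those of the 4 clusters were higher in BAT: Hoxa4, Hoxc4, Hoxb4 (-0.98 ± 0.15) and Hoxd4 (-1.35 ± 0.17). The row of Hoxd4 lies within that of Hoxd3, so the separate counts of Hoxd3 and Hoxd4 are uncertain. Hoxb4, known for expanding blood stem cells, was at 1.57 ± 0.399 RPKM in iWAT, 0.891 ± 0.195 in eWAT and 2.02 ± 0.273 in BAT, and Hoxd4, a gene of the hindbrain and neck, at 0.711 ± 0.202, 0.399 ± 0.0970 and 1.18 ± 0.189. The call of Hoxb4, unlike those of Hoxa4, Hoxc4 and Hoxd4, was lost without TMM (-0.11).

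The number 5 genes were divided. Hoxa5 and Hoxc5 were higher in BAT, whereas Hoxb5, a gene of the enteric nervous system, was higher in iWAT (1.19 ± 0.15), at 1.84 ± 0.268, 0.602 ± 0.228 and 0.530 ± 0.0998 RPKM in iWAT, eWAT and BAT. Hoxc5 stood at 1.64 ± 0.736 RPKM in eWAT.

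Of the numbers 6 to 8, Hoxa7 (0.15 ± 0.09), Hoxb6 (-0.01 ± 0.20), Hoxa6 (-0.25 ± 0.27) and Hoxd8 (0.24 ± 0.14) were not called between iWAT and BAT. Hoxa7 was at 2.04 ± 0.202 RPKM in BAT, Hoxb6 at 1.58 ± 0.352, 0.513 ± 0.177 and 1.03 ± 0.272 in iWAT, eWAT and BAT, and Hoxd8, a trunk gene, at 4.65 ± 1.38, 1.97 ± 0.480 and 2.57 ± 0.301. Hoxb7, at 2.14 ± 0.583, 0.690 ± 0.131 and 0.681 ± 0.147 RPKM, and Hoxb8, at 1.11 ± 0.358, 0.408 ± 0.128 and 0.485 ± 0.108, were higher in iWAT (1.03 ± 0.18 and 0.57 ± 0.20). Both overlap a composite row, so their reads cannot be assigned with certainty.

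Anterior genes were low in each tissue. Hoxb2, a hindbrain gene, was at 1.65 ± 0.606, 0.633 ± 0.158 and 1.75 ± 0.316 RPKM in iWAT, eWAT and BAT, and Hoxb3, which acts in the hindbrain and throat pouches, at 0.870 ± 0.357, 0.348 ± 0.0732 and 1.155 ± 0.212. Their log2 fold changes of iWAT over BAT were -0.71 ± 0.20 and -1.03 ± 0.20. Hoxa3, needed for the thymus and parathyroid, was at 0.493 ± 0.0914, 0.152 ± 0.0642 and 0.878 ± 0.137 RPKM (-1.44 ± 0.12). Hoxa2 and Hoxd3 were below 1 RPKM in each sample.

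**Figure D4:**
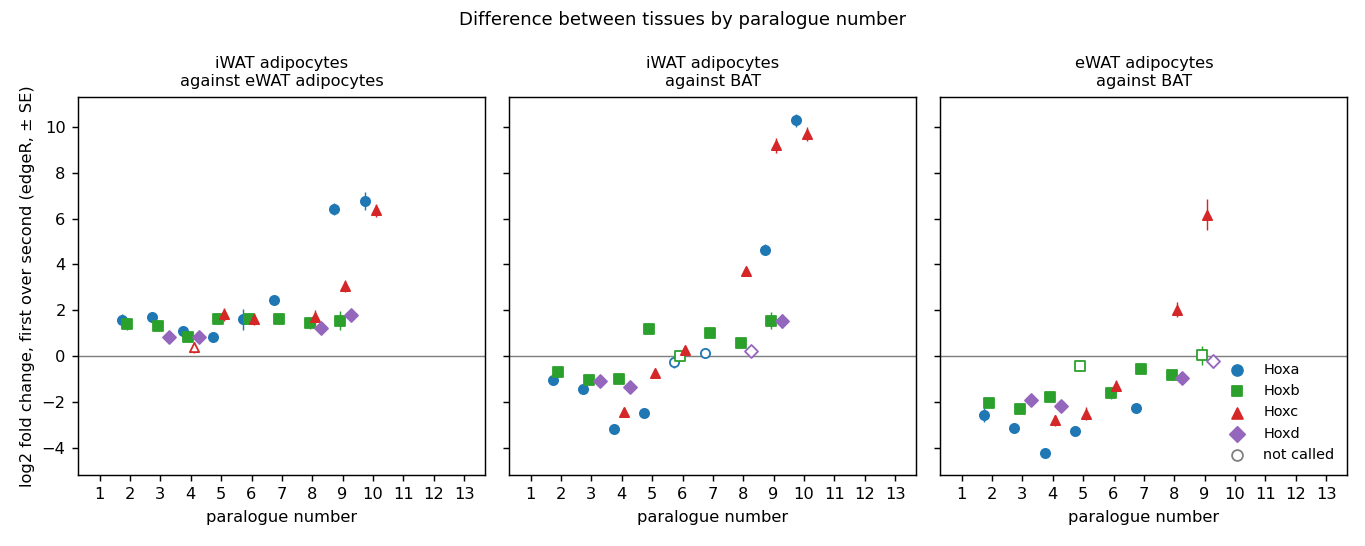
Log2 fold change ± SE of the Hox genes tested, by paralogue number, in the 3 comparisons, with open symbols for genes that were not called. Between iWAT and BAT the values ran from -3.19 at Hoxa4 to 10.29 at Hoxa10, below 0 for each plotted gene of numbers 2 to 4 and above 0 for each plotted gene of numbers 9 and 10, of which Hoxa9, Hoxa10, Hoxc9 and Hoxc10 could be tested only through iWAT.

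The comparison of eWAT and BAT sets abdominal white fat against brown fat. At an adjusted p of 0.05 in the edgeR test 2 Hox genes were higher in eWAT, 18 were higher in BAT and 3 were not called, of 23 tested. Over all 20076 genes tested, 82.5% were called, 41.1% higher in eWAT and 41.4% higher in BAT. Hoxa2 passed the count minimum only through BAT and Hoxc9 only through eWAT. Of the 21 genes that reached it in both tissues, Hoxc8 alone was higher in eWAT and 17 were higher in BAT.

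Hoxc8 and Hoxc9, which lie side by side, were the pair higher in eWAT. Hoxc8 had a log2 fold change of 2.03 ± 0.32 (4.09-fold, edgeR adjusted p = 2.94e-05), and its values overlapped between eWAT and BAT once scaled by TMM, although its RPKM did not. Hoxc9 had 10 to 43 reads in each eWAT sample and 0 or 1 in each BAT sample and was at least 2.999-fold higher. Hoxa9, Hoxa10 and Hoxc10 were too low in both tissues to be tested, at no more than 0.170 RPKM in any sample of either, and Hoxa9 was at 0.0326 ± 0.0198 RPKM in eWAT and 0.0739 ± 0.0284 in BAT.

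The genes furthest toward BAT were Hoxa4 (-4.24 ± 0.19, 18.9-fold), Hoxa5 (-3.28 ± 0.14, 9.74-fold) and Hoxa3 (-3.13 ± 0.21, 8.73-fold), with edgeR adjusted p of 1.47e-11, 6.33e-12 and 1.62e-09. Hoxc4 (-2.81 ± 0.23), Hoxa2 (-2.58 ± 0.29), Hoxc5 (-2.51 ± 0.28) and Hoxb3 (-2.32 ± 0.15) came next, so 3 clusters were represented. The smallest called differences were Hoxb7 (-0.58 ± 0.18), Hoxb8 (-0.84 ± 0.21) and Hoxd8 (-0.98 ± 0.14), and Hoxb5 (-0.42 ± 0.25), Hoxb9 (0.03 ± 0.40) and Hoxd9 (-0.23 ± 0.28) were not called. Hoxd9 was at 0.336 ± 0.145 RPKM in BAT and Hoxb9 at 0.142 ± 0.0584. Hoxb7 and Hoxb8 turned direction without TMM, to 0.31 and 0.05.

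A ratio of genes of a single cluster within a sample does not depend on library scaling. The 4 ratios of a posterior over a central gene and 4 of genes within the central numbers were compared on the log2 scale, with 0.5 reads added, by exact two-sided permutation over 924 regroupings of the samples in 24 tests (the smallest p is 0.00216, or 0.00371 after adjustment). The ratio of Hoxc10 to Hoxc8 was -1.84 ± 0.133 in iWAT, -6.49 ± 0.706 in eWAT and -7.03 ± 0.908 in BAT. The iWAT values, from -2.06 to -1.66, overlapped neither other tissue, whereas the eWAT and BAT ratios overlapped and rested on 0 to 11 reads of Hoxc10. No p is given for this ratio, since Hoxc10 reached the count minimum only through iWAT and the outcome could hardly have been otherwise.

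Moving forward by a few genes in the same cluster, the grouping of the tissues changed. The ratio of Hoxc5 to Hoxc8 was -2.49 ± 0.136 in iWAT and -2.56 ± 0.120 in eWAT, which overlapped (adjusted exact permutation p = 0.399), against 1.92 ± 0.529 in BAT, which overlapped neither (adjusted exact permutation p = 0.00371 for each). In the Hoxa cluster the ratio of Hoxa5 to Hoxa7 separated the 3 tissues, at -0.29 ± 0.262, 1.34 ± 0.202 and 2.37 ± 0.178 in iWAT, eWAT and BAT (adjusted exact permutation p = 0.00371 for each pair). The ratio of Hoxa10 to Hoxa7 was -0.09 ± 0.304 in iWAT, above -5.21 ± 1.97 in eWAT and -9.02 ± 0.644 in BAT. No p is given for it, since Hoxa10 also reached the count minimum only through iWAT. Hoxa10 had 0 reads in 2 eWAT and 5 BAT samples, where this ratio is set by the added 0.5 reads and by Hoxa7, so eWAT and BAT are not compared.

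In the Hoxb and Hoxd clusters the same kinds of ratio were taken. The row of Hoxd4 overlaps that of Hoxd3, so the reads of Hoxd4 cannot be assigned with certainty. The ratio of Hoxb4 to Hoxb7 was -0.44 ± 0.160, 0.35 ± 0.362 and 1.56 ± 0.331 in iWAT, eWAT and BAT, and that of Hoxd4 to Hoxd8 was -2.70 ± 0.298, -2.28 ± 0.217 and -1.12 ± 0.237, each pair past the threshold (adjusted exact permutation p at most 0.0301). The ratio of Hoxd9 to Hoxd8, at -1.67 ± 0.247, -2.17 ± 0.331 and -3.01 ± 0.658, also passed for each pair (adjusted exact permutation p at most 0.0289). The ratio of Hoxb9 to Hoxb7 did not, at -1.87 ± 0.528, -1.85 ± 1.02 and -2.34 ± 0.858 (adjusted exact permutation p from 0.327 to 0.976), so no difference was detected in this ratio.

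Within the 6 iWAT samples, Hox levels were set beside the adipocyte and endothelial markers. Endothelial markers summed to 239 and 280 RPKM in samples 1 and 5 and to 99.5 to 178 in the other 4, and Hoxb4, at 1.84 and 2.20 RPKM in samples 1 and 5, was at 1.09 to 1.61 in the others. Over 27 genes and both marker lists, 54 relations on log2 levels were computed. Hoxb4 and the endothelial markers had Pearson's r = 0.984 (exact permutation p = 0.00139, adjusted 0.075) and Spearman's rho = 1.0 (exact permutation p = 0.00278, adjusted 0.075), and r = 0.983 without the 2 farthest samples.

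Hoxc8 and the adipocyte markers had r = 0.769 (exact permutation p = 0.0569, adjusted 0.194) and rho = 0.829 (exact permutation p = 0.0583, adjusted 0.185), and r = 0.429 without the 2 farthest samples, so this relation rested on them. None of the 54 passed after adjustment. With the endothelial list r was positive for 6 of 9 Hoxa, 8 of 8 Hoxb, 1 of 6 Hoxc and 4 of 4 Hoxd genes, and with the adipocyte list for 4 of 9, 2 of 8, 5 of 6 and 0 of 4. These are counts of signs over 6 samples, and the clusters were not tested against each other. Both marker lists opposed each other across the same samples (r = -0.789, exact permutation p = 0.0542, and rho = -0.829, exact permutation p = 0.0583). The part of endothelial or other cells in the Hoxb and Hoxd levels was not tested. Without samples 1 and 5, 25 of 26 tested genes were higher in iWAT than in eWAT, and against BAT the call of Hoxb8 was lost (0.40 ± 0.20). The 25 include genes tested only through iWAT, whose calls are not counted as support.

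Other rows of the clusters shared reads with members or lay between them. Inside the clusters 33 further rows were found, and 19 Hox rows overlapped a row of another symbol. Hotair, a non-coding RNA between Hoxc11 and Hoxc12, had at most 1 read in any sample, and Hottip, at the 5′ end of the Hoxa cluster, had none. The antisense transcript Hoxaas3, which spans Hoxa3 to Hoxa7, was at 1.41 ± 0.239 RPKM in iWAT, 0.324 ± 0.0620 in eWAT and 1.08 ± 0.0978 in BAT. Whether the counting used strand is not given in the sources used here, so sense and antisense reads cannot be told apart.

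Of the genes that flank the clusters, those expressed lay within a few-fold of each other between tissues. Calcoco1, beside the 5′ end of Hoxc at 199 kb from it, was at 7.79 ± 0.430, 5.91 ± 0.417 and 6.82 ± 0.367 RPKM in iWAT, eWAT and BAT, and its log2 fold change between the white depots was 0.41 ± 0.07. Mtx2, beside Hoxd, was at 7.33 ± 0.667, 5.93 ± 0.780 and 13.2 ± 1.44 RPKM, and Skap2, beside Hoxa, at 5.31 ± 0.691, 12.3 ± 1.80 and 2.75 ± 0.258. The even-skipped homologues Evx1 and Evx2, at the posterior ends of Hoxa and Hoxd, had at most 1 read in any sample.

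Hox proteins bind DNA together with TALE homeodomain cofactors of the Pbx, Meis and Pknox families. Between the white depots, 7 of the cofactors described here were tested. Of these, 2 were higher in iWAT (Meis2 and Meis1), 4 were higher in eWAT (Meis3, Pbx2, Pbx3 and Pknox1) and Pknox2 was not called. Over all genes tested, 68.6% were called, 34.1% higher in iWAT and 34.5% higher in eWAT. Pbx2 was the highest cofactor in each tissue, at 6.24 ± 0.833 RPKM in iWAT, 9.97 ± 1.09 in eWAT and 4.72 ± 0.793 in BAT.

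The Meis genes differed among themselves. Meis1 was lower in iWAT than in BAT (-1.72 ± 0.15), at 0.215 ± 0.0395, 0.162 ± 0.0407 and 0.470 ± 0.103 RPKM in iWAT, eWAT and BAT, as was Meis2 (-0.86 ± 0.11), at 0.505 ± 0.0560, 0.230 ± 0.0668 and 0.604 ± 0.0818. Meis3 was higher (1.54 ± 0.16), at 1.37 ± 0.113, 2.36 ± 0.427 and 0.305 ± 0.0884 RPKM. In eWAT against BAT, where 82.5% of all genes were called, 4 cofactors were higher in eWAT and Meis1 and Meis2 higher in BAT. Pknox1 was at 2.18 ± 0.377, 2.66 ± 0.195 and 1.18 ± 0.187 RPKM and Pbx3 at 0.624 ± 0.107, 0.810 ± 0.0838 and 0.368 ± 0.0719, whereas Pbx4 and Pknox2 stayed below 0.1 RPKM.

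**Figure D5:**
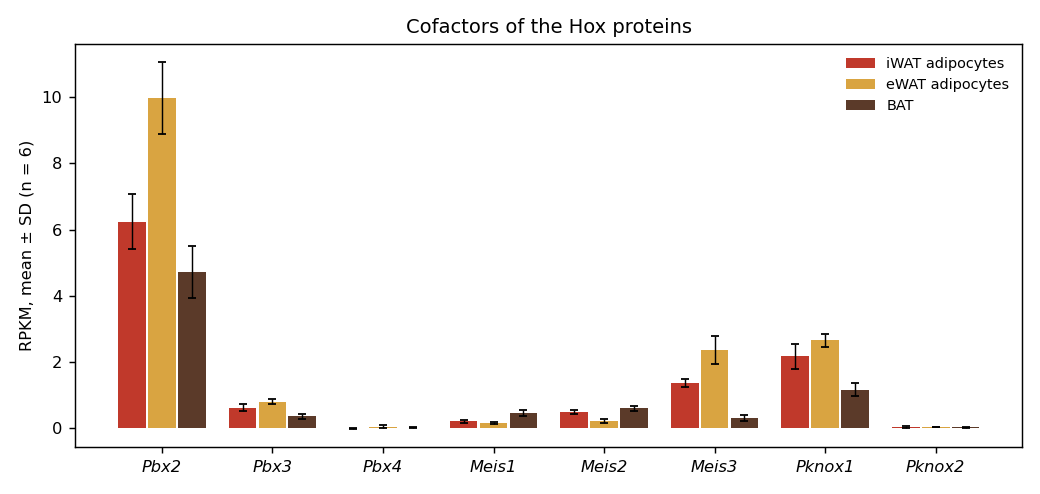
Mean RPKM ± SD (n = 6) of 8 TALE cofactors in iWAT, eWAT and BAT. Pbx2 was highest in each tissue, at 9.97 RPKM in eWAT, and Meis3 was lowest in BAT at 0.305 RPKM.

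Polycomb complexes keep Hox genes silent through histone H3 lysine 27 methylation, and Trithorax complexes and lysine 27 demethylases keep them active. Of 21 Polycomb genes, 8 were higher in iWAT and 6 in eWAT, 5 were higher in iWAT and 7 in BAT, and 9 were higher in eWAT and 9 in BAT, against 68.6%, 75.3% and 82.5% of all genes called in these comparisons. With the replicate block, which rests on 4 pairs of samples here, 6 rather than 12 were called between iWAT and BAT. The share of all genes called fell from 75.3% to 63.5%. Pcgf2 had the largest change toward iWAT between the white depots (1.17 ± 0.15) and the largest toward BAT in both other comparisons (-1.63 ± 0.14 and -2.77 ± 0.14), at 0.799 ± 0.164, 0.354 ± 0.0444 and 1.61 ± 0.287 RPKM. Phf19, a Polycomb accessory protein, was lower in iWAT than in eWAT (-1.42 ± 0.21), at 0.412 ± 0.132, 1.10 ± 0.263 and 0.359 ± 0.0737 RPKM.

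Of 10 Trithorax and demethylase genes, 1 was higher in iWAT and 7 in eWAT, and 4 were higher on each side of both comparisons with BAT. Thus 8 of 10 were called each time, near the shares of all genes called in either direction. Between the white depots the calls lay mostly toward eWAT, whereas 34.1% of all genes were higher in iWAT and 34.5% in eWAT. This lean was not tested. With the replicate block 5 rather than 8 were called in either comparison with BAT, against 63.5% (iWAT) and 75.4% (eWAT) of all genes. Kdm6b, a lysine 27 demethylase, was at 12.9 ± 4.36, 17.4 ± 3.02 and 6.07 ± 2.02 RPKM, with log2 fold changes of -0.44 ± 0.17 between the white depots and 0.94 ± 0.18 between eWAT and BAT.

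Retinoic acid, Cdx proteins and Gdf11 set the Hox pattern in the embryo. Of 10 such genes 6 could be tested. Between the white depots Gdf11 (1.497 ± 0.28), Rarb (0.86 ± 0.18) and Rarg (0.25 ± 0.10) were higher in iWAT, 0 were higher in eWAT and 3 were not called. Over all genes tested, 68.6% were called, so calls were no more common in this list. Rarb, a retinoic acid receptor that is itself induced by retinoic acid, was highest in BAT, at 0.8495 ± 0.171, 0.472 ± 0.115 and 2.48 ± 0.388 RPKM in iWAT, eWAT and BAT (-2.15 ± 0.13 for iWAT over BAT, edgeR adjusted p = 5.28e-10). Aldh1a2, which makes retinoic acid, was the reverse, at 2.36 ± 1.07, 2.96 ± 1.20 and 0.0990 ± 0.0427 RPKM (3.96 ± 0.33, edgeR adjusted p = 2.93e-08). Cdx1, Cdx2 and Cdx4 had at most 1 read in any sample.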

How the data were processed

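RNA-seq libraries had been made with a NEBNext Ultra kit from RNA of 18 samples. Per the submitters' processing notes, the tools were cutadapt 1.16 and HISAT2 2.1.0 and the genome build mm9, and the counting program, the annotation and any use of strand are not given in the sources used here. The deposited files hold, per transcript row, a raw read count made by the authors and an RPKM value that the authors derived from that count. Some items are not reported here. The files held 0 columns of other samples. Groups were taken from the labels, and for symbols with several rows the row of highest mean RPKM was used. The Hox genes, gene lists and tests were chosen with earlier results of these data known.

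Counts were compared with edgeR 4.0.16 in R 4.3.3 (glmQLFit, glmQLFTest, TMM, two-sided, mean count of at least 10, Benjamini-Hochberg adjustment over all genes tested, threshold 0.05), each comparison on its own 12 samples. These fits were tested on simulated data in which few genes were changed, so the assumption behind TMM was not tested there. Alternatives were a replicate block, DESeq2 1.42.0 size factors, no TMM, limma 3.58.1 on log2(RPKM + 0.1) or log2(RPKM + 1) with a mean of at least 0.1 RPKM, no count filter, rows of a symbol summed, all 18 samples in one fit, a log2 fold change of at least 1, lane as a covariate and single lanes. Scaling to adipocyte markers and leaving out eWAT samples 1 and 3 or iWAT samples 1 and 5 were chosen after seeing the data. Expression was called at 1 RPKM, with 0.1 and 0.5 as alternatives. Where no sample of a tissue exceeded 3 reads, a fold was given as a bound, with 3 reads per library as the level of that tissue on the TMM-scaled RPKM scale. These bounds cover counting error only. Ratios and correlations were tested with Python 3.11.15 and scipy 1.17.1, the correlations on log2(RPKM + 0.1).

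Hox genes at 1 RPKM in a tissue, the 3 with the largest change each way and those with at most 3 reads in each sample of one tissue and at 1 RPKM in another were named with values, as were TALE cofactors and, of each other list, the called genes of largest change. Hoxa2, Hoxa11, Hoxb9, Hoxc11, Hoxd1, Hoxd3 and Hoxd10, the flanking genes, Rarg, Gdf11, Kdm6b and Pcgf2 were in part chosen after their values were seen. Replicate numbers in the titles recur between tissues and read as mouse numbers, although the deviations of same-numbered samples did not correlate (mean r -0.0081 between the white depots, -0.021 between iWAT and BAT and 0.0084 between eWAT and BAT). No label says that samples of a group came from separate mice, so the p-values measure the spread between these samples.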

Additional observations from a re-analysis of the deposited data

Results flagged for a closer look

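In 3 of 36 groups of 6 samples examined, a single sample lay far from the others by Dixon's test, where chance alone flags about 1 in 20 groups. Hoxa9 was at 3.87 RPKM in iWAT replicate 2, against 2.29 to 2.83 RPKM in the other samples of iWAT adipocytes. Hoxd9 was at 2.69 RPKM in iWAT replicate 1, against 1.04 to 1.61 RPKM in the others. Hoxc4 was at 5.65 RPKM in BAT replicate 2, against 3.01 to 3.94 RPKM in the others. In each case the sample lay on the side of the tissue in which the gene was already highest.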

How the results depend on the processing

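Between iWAT and eWAT adipocytes, the call and direction of 26 of 26 Hox genes followed singly held in 11 alternatives that leave out marker scaling, single lanes and the fold threshold, although 1 gene was not tested without iWAT samples 1 and 5. Here and below, counts include genes tested only through a single tissue, whose calls are not counted as support. Between iWAT adipocytes and BAT 15 of 26 and between eWAT adipocytes and BAT 16 of 22 held in 9 alternatives that leave out the fold threshold. A log2 fold change of at least 1 ended the calls of 4, 5 and 3 of these genes in the 3 comparisons, and between the white depots 2 lost their call within lane 1 and 3 within lane 2. A replicate block, which pairs samples by number, changed no call between the white depots (26 higher in iWAT adipocytes). It changed none between eWAT adipocytes and BAT (20 called), and left 19 called between iWAT adipocytes and BAT. Between the white depots it rests on 6 pairs and in each comparison with BAT on 4, so calls lost there may reflect fewer samples. With this block 6 rather than 12 Polycomb genes were called between iWAT adipocytes and BAT, and 5 rather than 8 Trithorax and demethylase genes in either comparison with BAT. Scaled to 5 adipocyte markers, 9 Hox genes were called between the white depots, 5 higher in iWAT and 4 in eWAT adipocytes, with turned log2 fold changes of -0.45 (Hoxa4), -0.74 (Hoxa5), -0.15 (Hoxb2), -0.27 (Hoxb3), -0.70 (Hoxb4), -0.021 (Hoxb6), -0.056 (Hoxb8), -0.17 (Hoxb9), -1.05 (Hoxc4), -0.74 (Hoxd3), -0.72 (Hoxd4) and -0.29 (Hoxd8). Against iWAT adipocytes, 5 Hox genes were higher in BAT without TMM and 7 with limma at either pseudocount, and 17 were higher in iWAT adipocytes with no filter on low counts. Without TMM, 19 Polycomb genes were called in this comparison and the turned log2 fold changes were 0.16 (Hoxb2), 0.85 (Hoxb6) and 0.12 (Hoxc5), with 0.58 (Hoxb6) under limma at a pseudocount of 0.1 and 0.34 (Hoxb6) at 1. Between eWAT adipocytes and BAT, 4 Hox genes were higher in eWAT adipocytes without TMM and 6 with no filter, and the turned values were 0.31 (Hoxb7), 0.052 (Hoxb8) and 0.68 (Hoxd9) without TMM and, for Hoxb7, 0.022 and 0.0084 under limma. A cutoff of 0.1 RPKM counted 29, 25 and 23 expressed Hox genes in iWAT adipocytes, eWAT adipocytes and BAT, and 0.5 RPKM counted 12 in eWAT adipocytes. No TMM and limma on RPKM leave out the scaling between tissues, and dropping the filter adds Hox genes to the test. The cause of the other shifts was not tested. Depth limits the posterior genes of eWAT adipocytes and BAT, whose levels rest on a few reads.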
